A study of Mus musculus with 108 samples.

Results

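The metabolite-sensing nuclear receptors examined here are 10 genes of 26089 curated RefSeq genes on chromosomes 1 to 19 and X. They were chosen by name, with earlier results of these data known. They comprise the bile acid receptor FXR (Nr1h4) and the repressor SHP (Nr0b2) that it induces, the oxysterol receptor LXRα (Nr1h3), the xenobiotic receptors PXR (Nr1i2) and CAR (Nr1i3), the shared dimer partner RXRα (Rxra), the fatty acid receptors PPARγ (Pparg) and PPARδ (Ppard), the glucocorticoid receptor (Nr3c1) and thyroid hormone receptor β (Thrb). Their chromatin states were read at the transcription start site (TSS), within 2 kb of it, over the gene body and over 50 kb on each side, in bins of 200 bp on mm10.

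The livers came from inbred C57BL/6 females, fixed in formalin and embedded in paraffin. Mice on standard diet were taken at 3 months (SD 3m, 8 mice, 30 libraries) and at 12 months (SD 12m, 8 mice, 29 libraries), and mice given 30% fewer calories from the age of 3 months were taken at 12 months (CR 12m, 9 mice, 29 libraries). H3K4me3, H3K27me3, H3K27ac and H3K4me1 were profiled by ChIP-seq. In SD 3m, SD 12m and CR 12m, H3K4me3 had 7, 8 and 5 libraries and H3K27me3 had 7, 8 and 6. H3K27ac had 8, 7 and 9 and H3K4me1 had 8, 6 and 9, so the marks were not balanced across groups. Whether this affected the labels was not tested. The libraries of a group were merged before each bin received 1 of 8 states in a model shared by all groups. A further group, SD 6m, was not analysed here.

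A nuclear receptor of this kind is a transcription factor that binds a small fat-soluble molecule and then exchanges corepressors for coactivators on its target genes. Most of these receptors bind DNA as a dimer with RXRα, on paired copies of a short half-site, whereas the glucocorticoid receptor binds mainly as a homodimer and SHP has no DNA-binding domain and represses other receptors. In liver they control bile acid synthesis, cholesterol efflux, lipogenesis, drug metabolism, fatty acid oxidation and gluconeogenesis. Of the states, 1 marks active TSS, 2 the sequence flanking active TSS, 3 and 4 active enhancers, 5 poised enhancers, 6 Polycomb repression with H3K27me3 alone, 7 a state with weak H3K4me3 and little H3K27me3 that the study related to age, and 8 quiescent sequence without these marks.

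Each group has 1 segmentation of merged libraries, so no difference between groups could be set against the spread between mice, and no test was made. How many reads stand behind a label is unknown. Series of 3 values run from SD 3m over SD 12m to CR 12m, and "under restriction" stands for CR 12m beside the standard diet at 3 and 12 months. In whole liver, a mark carried by fewer cells and a mark lowered in every cell cannot be told apart. Among the marker genes examined, the TSS bin was in states 1 to 5 for 8 of 8 hepatocyte genes in all 3 groups and for 0 of 4 genes of other organs. The same counts were 2, 1 and 0 of 5 for Kupffer cells and other leukocytes, 2, 2 and 4 of 4 for endothelium, 1, 1 and 1 of 4 for stellate cells and 1, 2 and 3 of 4 for cholangiocytes. The markers that crossed between states 1 to 5 and 6 to 8 were Adgre1, Ptprc, Clec4g, Kdr, Stab2, Epcam, Krt19, Krt7 and Sox9. Thus the non-hepatocyte markers differed between groups, and their part in the values of the receptors was not tested.

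All 10 receptors had their TSS bin in states 1 to 5 in every group. Of all genes, 58.2% did so at 3 months, 58.3% at 12 months and 58.9% under restriction, and 54.7% did so in all 3 groups. Nr1i3, Rxra and Thrb were in state 1 in each group, Nr0b2 and Ppard in state 3, and Pparg in state 4. The remaining 4 receptors differed between groups. Nr1h4 was in state 2 at 3 months, 3 at 12 months and 2 under restriction. Nr1h3 was in states 2, 1 and 3, and Nr1i2 in states 2, 2 and 3. Nr3c1 was in states 4, 4 and 5. Each of these differences stayed among promoter and enhancer states.

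Between SD 3m and SD 12m the state of the TSS bin differed in 2 of 10 receptors, against 32.6% of all genes and 32.4% of the genes with a TSS in states 1 to 5 in SD 3m. In CR 12m it differed from SD 3m in 3 of 10, against 34.7% and 39.0%. Between SD 12m and CR 12m it differed in 4 of 10, against 26.7% of all genes and 28.0% of those in states 1 to 5 in CR 12m. With 10 genes these counts lie near the background. The first 2 comparisons share the SD 3m segmentation and are not independent of each other.

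**Figure D1:**
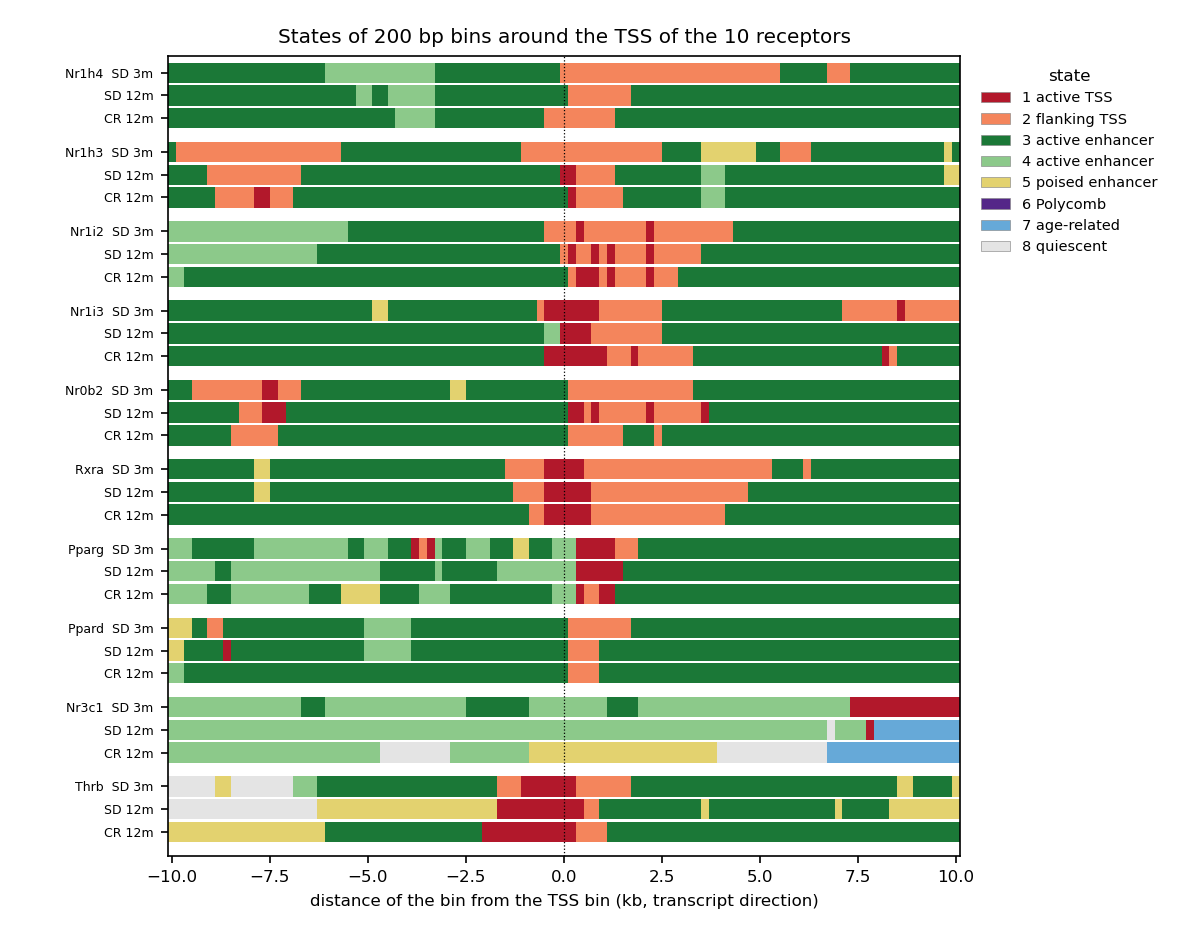
State of each 200 bp bin within 10 kb of the TSS of the 10 receptors (x axis, distance from the TSS bin in kb in transcript direction), with 1 row per group (SD 3m, SD 12m, CR 12m from top to bottom); colours give the 8 states. States 1 and 2 start near the TSS in 9 receptors and cover 5.6 kb at Nr1h4 in SD 3m against 1.6 kb in SD 12m, while Nr3c1 has none within 2 kb of its main TSS.

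The sequences before the TSS of Nr1h4, Nr1h3, Nr1i2 and Pparg are shown because these RefSeq promoters (GRCm38.p6) start in a bin whose state differed between groups. Each line is the 250 bases before a TSS, 5′ to 3′ in transcript direction, and capitals mark the receptor half-site AGGTCA or the TATA box TATAAA on either strand. Nr1h4 stands for its second promoter at chr10:89506659-89506908 (minus strand, within an intron of the long transcript), Nr1h3 for chr2:91195117-91195366 (minus strand), Nr1i2 for chr16:38294825-38295074 (minus strand) and Pparg for its second promoter at chr6:115362099-115362348 (plus strand, within an intron of the long transcript).
Nr1h4: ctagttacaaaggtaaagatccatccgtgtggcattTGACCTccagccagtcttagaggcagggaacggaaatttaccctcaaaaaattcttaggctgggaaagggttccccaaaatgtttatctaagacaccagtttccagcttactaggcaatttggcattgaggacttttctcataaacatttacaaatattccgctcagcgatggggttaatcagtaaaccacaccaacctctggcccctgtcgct
Nr1h3: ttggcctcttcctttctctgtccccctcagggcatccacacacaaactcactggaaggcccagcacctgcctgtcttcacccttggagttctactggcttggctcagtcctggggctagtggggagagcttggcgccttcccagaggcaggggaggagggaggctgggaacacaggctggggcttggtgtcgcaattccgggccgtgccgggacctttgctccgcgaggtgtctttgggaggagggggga
Nr1i2: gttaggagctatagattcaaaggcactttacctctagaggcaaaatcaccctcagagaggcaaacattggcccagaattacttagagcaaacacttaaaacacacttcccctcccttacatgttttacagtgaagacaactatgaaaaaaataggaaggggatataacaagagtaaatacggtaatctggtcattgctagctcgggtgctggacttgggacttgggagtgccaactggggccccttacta
Pparg: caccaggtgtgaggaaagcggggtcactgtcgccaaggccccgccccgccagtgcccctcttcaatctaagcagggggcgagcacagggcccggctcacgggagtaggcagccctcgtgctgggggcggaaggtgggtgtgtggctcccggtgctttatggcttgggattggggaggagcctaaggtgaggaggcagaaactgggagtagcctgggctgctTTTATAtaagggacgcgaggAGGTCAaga
The 4 sequences overlap no exon of their gene. GC content was 44.4% in Nr1h4, 63.2% in Nr1h3, 44.0% in Nr1i2 and 63.6% in Pparg, with 5, 7, 2 and 12 CpG dinucleotides. The Nr1h4 sequence held 1 half-site, the Pparg sequence held 1 half-site and 1 TATA box, and the other two held neither. The TSS bin of all 4 sequences was in state 3 in CR 12m.

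RefSeq listed 14 promoters of 300 bases for 9 of the receptors, 250 before and 50 from the TSS on. The exception was Nr3c1. The half-site AGGTCA, searched on both strands, occurred in 5 of the 14, against 16.3% of 32851 promoters. These were the second Nr1h4 promoter, the main Thrb promoter, an Rxra promoter inside the gene and the 2 Pparg promoters nearest the start of the gene. TATAAA on either strand occurred in 3 of 14 (Nr0b2, the second of Pparg and the second of Thrb), against 13.6%. Paired half-sites, to which receptor dimers bind, were searched as exact copies in a few spacings, and none was found in the 14. Direct repeats with 1 base between them occur in 0.0396% of all promoters and those with 4 bases in 0.0152%. Inverted repeats with 1 base occur in 0.00913%. Pairs this rare would hardly be met in 14 promoters, so their absence tells nothing about the receptors. Other spacings and inexact copies were not searched. The median GC content was 58.5% in the 14 and 52.7% in all promoters, and the median number of CpG dinucleotides was 7.5 and 7.0. The CpG content ranged widely among the receptors, from 1 in the Rxra promoter inside the gene to 55 in the main Rxra promoter.

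The stretch in states 1 and 2 at the TSS was shorter in both older groups than at 3 months in most receptors. Of the 9 receptors with such bins within 2 kb of the TSS at 3 months, 8 had fewer at 12 months and 9 had fewer under restriction. This was also the case for 87.9% and 92.2% of the 12477 genes with such bins. Out of 21 bins, the median of these genes was 13, 8 and 7, and the median of all 10 receptors was 12, 9 and 8. Thus the receptors followed the genome-wide direction. Within 2 kb of the TSS, 30.5% of the bins of the receptors differed between SD 12m and SD 3m (Wilson 95% interval 24.6 to 37.0, counting error only), against 37.2% over all genes. The shares were 34.8% against 38.2% for CR 12m with SD 3m, and 25.2% against 25.4% for SD 12m with CR 12m. The most frequent switch was from state 2 to state 3, which made up 26 of 64 switched bins in SD 12m and 33 of 73 in CR 12m.

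**Figure D2:**
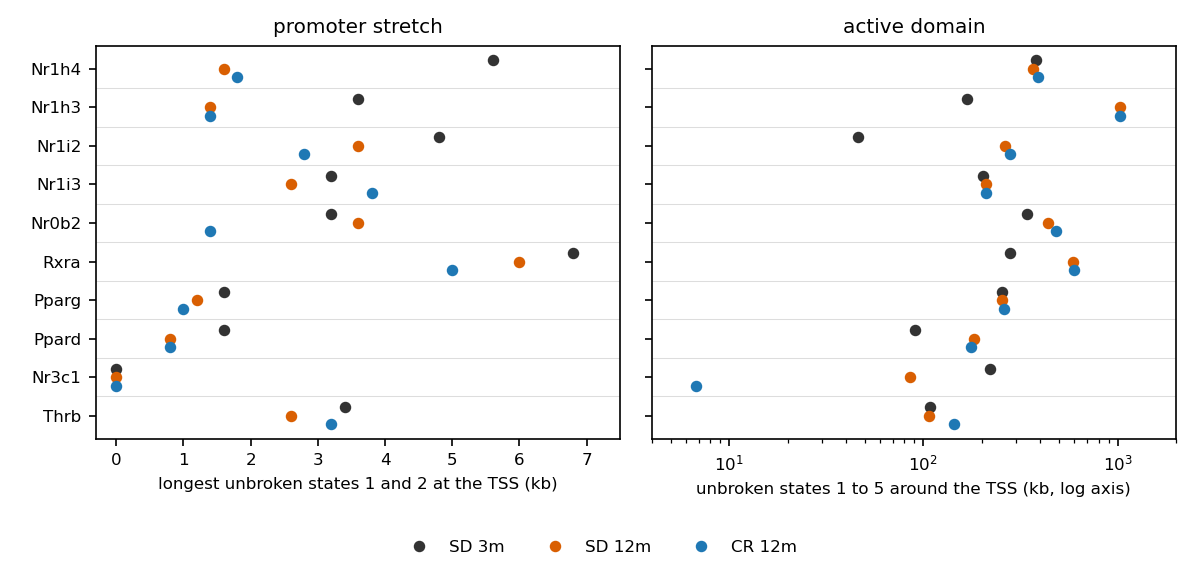
Length of the longest unbroken stretch in states 1 and 2 that reaches within 2 kb of the TSS (left, kb) and of the unbroken stretch in states 1 to 5 that holds the TSS (right, kb, log axis); each point is 1 receptor in SD 3m, SD 12m or CR 12m. The left panel runs from 0 kb in Nr3c1 to 6.8 kb in Rxra, and in the right panel Nr1h3 goes from 167.8 kb to 1025 and 1030.4 kb while Nr3c1 goes from 221.2 kb to 6.8 kb in CR 12m.

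Gene bodies were mostly in state 3, an active enhancer state. It was the most frequent state of the body in all 3 groups in 8 of 10 receptors (17.3% of all genes) and held at least 50% of the body bins in 6 of 10 (13.5%). No body bin of any receptor was in the Polycomb state 6 in any group. The same holds for 73.0% of all genes and for 66.3% of the genes of at least 20 kb, a length that 7 receptors reach. Pooled over the 4590 body bins, state 3 held 65.4% at 3 months, 63.6% at 12 months and 76.5% under restriction, against 16.1%, 17.2% and 19.9% over all genes. State 5 held 9.85%, 14.1% and 3.14%, against 9.12%, 5.32% and 4.57% over all genes. The higher share of state 5 and the lower share of state 3 at 12 months rested on Thrb. Without Thrb, a choice made after the values were seen, state 5 held 3.88%, 2.55% and 1.15% and state 3 held 75.8%, 80.02% and 87.0%. The share of state 3 was larger than in SD 3m in 7 of 10 receptors in SD 12m (34.5% of all genes) and in 9 of 10 in CR 12m (42.8%). The exceptions in SD 12m were Nr1i3, Nr0b2 and Thrb, and the exception in CR 12m was Nr1i3. The shares of all genes given here for state 3 include genes without an active TSS. Only 54.7% of all genes had their TSS in states 1 to 5 in all 3 groups, as the 10 receptors did. The state 3 shares among those genes were not computed, so a trait of the receptors cannot be told apart from one of active genes.

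Pooled over bins, a smaller share of the gene bodies switched state than over all genes. In SD 12m, 16.7% of the bins of the receptors differed from SD 3m (Wilson 95% interval 15.6 to 17.8), against 29.4% of the bins of all genes. In CR 12m the share was 19.6% (18.4 to 20.7) against 26.9%, and between SD 12m and CR 12m it was 19.2% (18.1 to 20.4) against 22.5%. Neighbouring bins are not independent, so these intervals are too narrow. The pooled values rest in large part on Thrb, which holds 1887 of the 4590 bins. Without Thrb the shares were 13.2%, 18.4% and 12.8%. The median receptor had 17.2%, 22.8% and 16.8% of switched bins in the 3 comparisons, against 25%, 26.3% and 14.9% in the median gene. Over the 14260 genes with an active TSS in all groups, as the receptors have, the median was 26.9%, 32% and 16.7%. The median receptor was below the median of these genes in both comparisons with SD 3m. Between SD 12m and CR 12m the medians were about the same. Single receptors ranged from 2.09% (Rxra) to 39.7% (Nr1i2) in SD 12m and from 2.78% (Rxra) to 46.6% (Nr1i2) in CR 12m. In the flanks, 25%, 29.9% and 18.8% of bins differed in the 3 comparisons, against 31.1%, 31.1% and 21.8% over all genes.

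**Figure D3:**
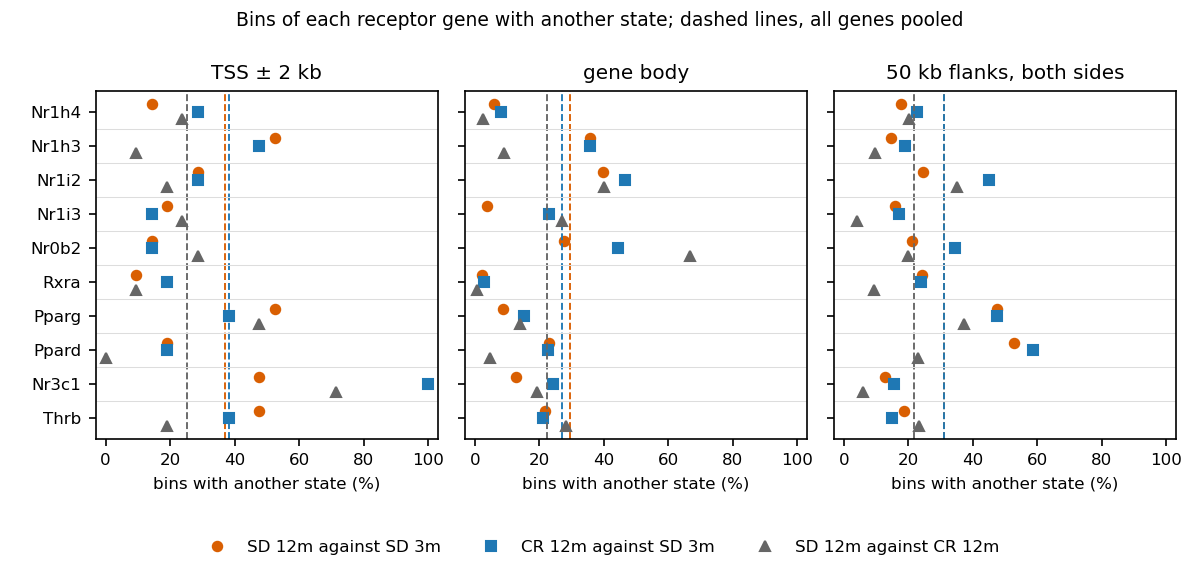
Share of bins with another state (x axis, %) for each receptor in the window of TSS ± 2 kb, the gene body and both 50 kb flanks; symbols are the 3 comparisons between groups and dashed lines the value pooled over all genes. Rxra has the lowest shares in the gene body, Nr3c1 reaches 100% at its main TSS in CR 12m against SD 3m, and Pparg and Ppard have the highest shares in the flanks in both comparisons with SD 3m.

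**Figure D4:**
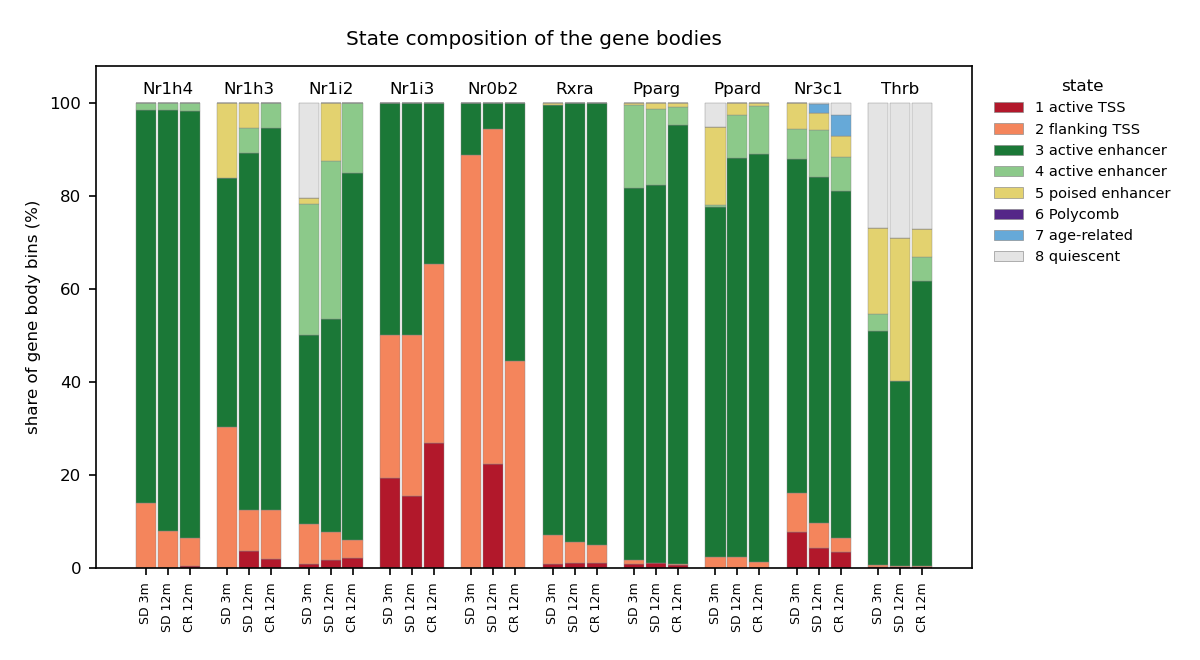
Share of gene body bins in each of the 8 states (y axis, %) for each receptor in SD 3m, SD 12m and CR 12m; stacked bars add up to 100%. State 6 is absent, state 8 holds 20.5% of Nr1i2 in SD 3m and 26.9% to 29.0% of Thrb in each group, and state 7 appears in Nr3c1 at 12 months.

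Nr1h4 encodes FXR, which senses bile acids and limits their synthesis. The gene lies at chr10:89454234-89533622 on the minus strand. At its main TSS the stretch in states 1 and 2 was 5.6 kb, 1.6 kb and 1.8 kb. Most of the loss was a block of 3.8 kb at chr10:89528201-89532000, from 1.62 to 5.42 kb downstream of the TSS and free of exons, which went from state 2 to state 3 at 12 months, when the TSS bin also left state 2. Under restriction the block was 4.2 kb long. State 2 held 13.8% of the body at 3 months, 7.79% at 12 months and 6.03% under restriction, whereas state 3 held 84.7%, 90.7% and 92.0%. Body bins that differed from SD 3m came to 6.03% and 8.04%, and 24 of 24 switched bins in SD 12m and 30 of 32 in CR 12m exchanged state 2 for state 3.

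A second curated TSS of Nr1h4 lies 26.96 kb inside the gene. Its bin was in states 2, 2 and 3, and 12, 11 and 10 of the 21 bins around it were in states 1 or 2. This inner promoter therefore lost 1 and 2 promoter bins while the outer one went from 11 to 8 and 9. In the upstream flank, state 4 held 25.2%, 21.2% and 4.4%, and state 3 held 68.0%, 74.4% and 94.8%. In the downstream flank the quiescent state 8 held 27.2%, 34.8% and 21.6%.

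Nr0b2 encodes SHP, an FXR target that represses bile acid synthesis genes. It is the shortest receptor gene, at chr4:133553376-133556686 on the plus strand, with 18 body bins. State 2 held 88.9% of them at 3 months, 72.2% at 12 months and 44.4% under restriction. State 1 held 0%, 22.2% and 0%, and state 3 held 11.1%, 5.56% and 55.6%. The body thus had more promoter states in SD 12m and fewer in CR 12m than in SD 3m, and 66.7% of its bins differed between SD 12m and CR 12m. The stretch in states 1 and 2 was 3.2, 3.6 and 1.4 kb. The TSS bin itself was in state 3 in every group, and its count of promoter bins within 2 kb was 10, 10 and 7. Of the 9 receptors with such bins at 3 months, it was the 1 whose count did not go down in SD 12m. Among its neighbours, the TSS bin of Nudc was in states 2, 1 and 3, of Gm42323 in states 1, 4 and 3, of Gpatch3 in states 2, 2 and 1 and of Gpn2 in states 2, 1 and 1, while Kdf1 stayed in state 4 and Sfn in state 3.

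Nr1h3 encodes LXRα, which senses oxysterols and drives cholesterol efflux and lipogenesis. The gene lies at chr2:91184061-91195116 on the minus strand. Within 2 kb of the TSS, 16 of 21 bins were in states 1 or 2 in SD 3m and 7 were in each older group. The stretch was 3.6 kb, 1.4 kb and 1.4 kb. In the body, state 2 held 30.4%, 8.93% and 10.7%, state 3 held 53.6%, 76.8% and 82.1%, and the poised state 5 held 16.1%, 5.36% and 0%. Body bins differing from SD 3m came to 35.7% in each 12 month group, whereas 8.93% differed between SD 12m and CR 12m, so the body was more alike in the older groups. The gene lies between Acp2 and Madd, whose TSS bins were in states 2, 2 and 1 and in states 2, 1 and 1, and farther upstream Ddb2 and A330069E16Rik were in state 1 throughout.

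Unbroken chromatin in states 1 to 5 around the Nr1h3 TSS measured 167.8 kb at 3 months, 1025 kb at 12 months and 1030.4 kb under restriction and held the TSS of 7, 27 and 27 genes. Across the 14260 genes with an active TSS in all groups the median was 52.8 kb, 82.2 kb and 99 kb. Of the receptors, 6 of 10 had a longer stretch in SD 12m than in SD 3m and 9 of 10 in CR 12m, against 73.6% and 78.7% of those genes. The receptor counts were near the background. Nr3c1 had a shorter stretch in both 12 month groups.

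Nr1i2 encodes PXR, which senses drugs and bile acids and induces Cyp3a genes. The gene lies at chr16:38248349-38294824 on the minus strand, and its body had the largest share of switched bins, 39.7% in SD 12m and 46.6% in CR 12m against SD 3m. A block of 9.6 kb near the end of the gene, chr16:38250801-38260400, covers 935 exonic bases. It was quiescent in SD 3m and in state 4 in SD 12m. State 8 held 20.5% of the body in SD 3m and 0% in both older groups. State 3 held 40.6%, 45.7% and 79.1%, and state 4 held 28.2%, 34.2% and 15.0%. State 5 held 1.28%, 12.4% and 0%. The older groups therefore shared the loss of state 8. The former state 8 block was in state 4 in SD 12m and in states 3 and 4 in CR 12m. Over the whole body, which includes sequence that was not quiescent in SD 3m, 40.2% of bins differed between SD 12m and CR 12m. With states grouped into 5 classes, 1.71% differed. The classes are promoter states 1 and 2, enhancer states 3 to 5, and states 6, 7 and 8 each alone.

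The flanks of Nr1i2 also differed between groups, but not in the manner of the body. Between SD 12m and CR 12m, 23.6% of the upstream bins differed with 5 classes. Upstream, state 8 held 66.8% at 3 months, 48% at 12 months and 27.6% under restriction, and the TSS bin of the neighbour Maats1 at 47.0 kb was in states 8, 4 and 3. Downstream, state 3 held 24.8%, 26.4% and 55.2%. Unbroken states 1 to 5 around the Nr1i2 TSS reached 46.0 kb, 262.2 kb and 280.8 kb. At the promoter, the stretch in states 1 and 2 went the other way and measured 4.8, 3.6 and 2.8 kb.

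**Figure D5:**
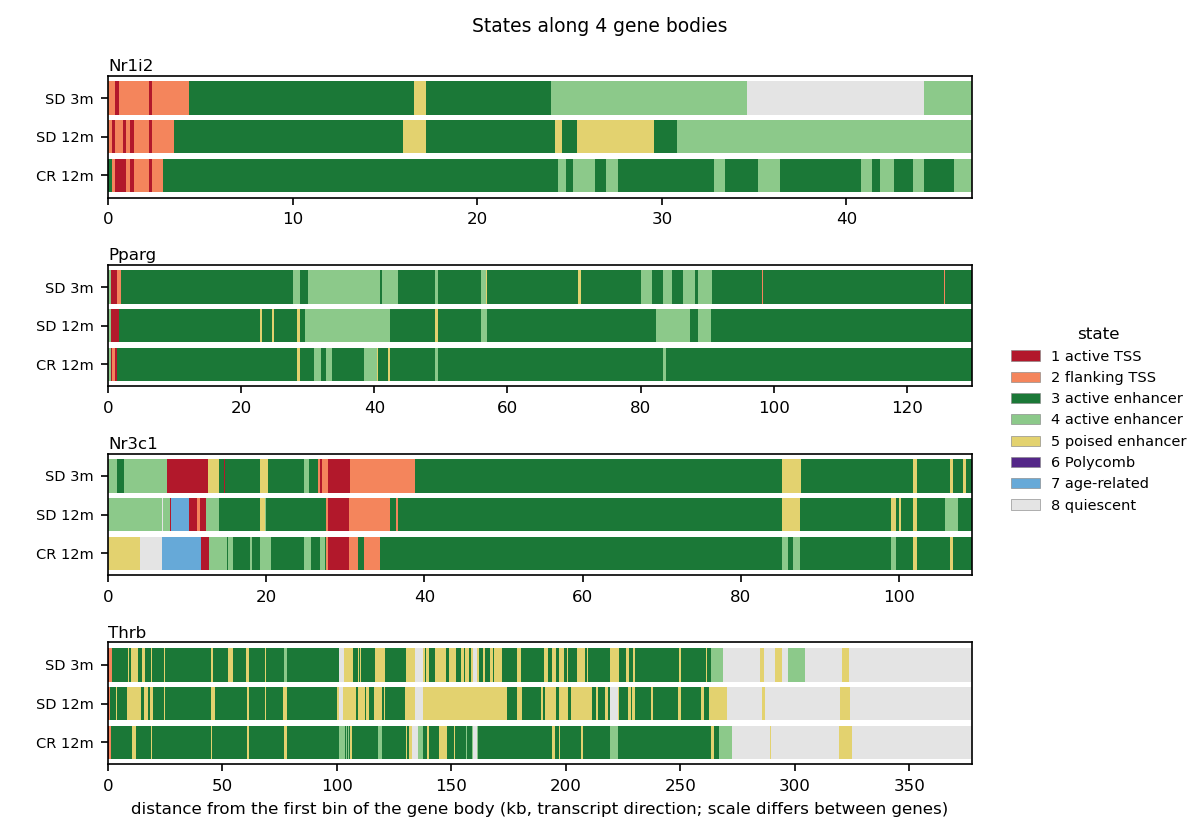
States along the gene bodies of Nr1i2, Pparg, Nr3c1 and Thrb (x axis, kb from the first bin of the body in transcript direction), with 1 row per group (SD 3m, SD 12m, CR 12m from top to bottom). The quiescent block of 9.6 kb in Nr1i2 is present in SD 3m alone, and a block of 36.6 kb in state 5 lies in Thrb in SD 12m alone.

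Nr1i3 encodes CAR, which responds to foreign compounds and activates Cyp2b genes. Its body of 26 bins, at chr1:171213970-171218845 on the plus strand, stayed in states 1 to 3. State 1 held 19.2%, 15.4% and 26.9%, state 2 held 30.8%, 34.6% and 38.5%, and state 3 held 50%, 50% and 34.6%. The stretch in states 1 and 2 was 3.2, 2.6 and 3.8 kb, so that Nr1i3 was the 1 receptor with a longer stretch in CR 12m than in SD 3m. Single bins differ in these values, as 1 bin is 0.2 kb. Its surroundings, by contrast, lost promoter states in both older groups. State 2 held 29.2% of the downstream flank at 3 months, 9.6% at 12 months and 6.00% under restriction. The TSS bins of the mitochondrial import gene Tomm40l and of the apolipoprotein gene Apoa2 there were in states 1, 3 and 3 and in states 2, 3 and 3, while the TSS bin of Nr1i3 was in state 1 throughout. Upstream, Pcp4l1 was in states 2, 3 and 3. Fcer1g and Adamts4 stayed in state 3.

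Rxra encodes RXRα, the common partner of FXR, LXRα, PXR, CAR, the PPARs and TRβ. The gene lies at chr2:27677201-27763319 on the plus strand. Its body was the most uniform of the 10, with state 3 at 92.6%, 94.4% and 95.1%, and 2.09% and 2.78% of its bins differed from SD 3m. The promoter stretch was also the longest of the 10, at 6.8, 6.0 and 5.0 kb. The curated TSSs at 32.1 and 33.4 kb inside the gene were in state 3 in each group, without a bin in states 1 or 2 within 2 kb. Beyond the end of the gene, state 6 held 19.6% of the downstream flank in SD 3m and 0% in both older groups, and state 8 held 36.8%, 68.8% and 66%. The longest block that went from state 6 to state 8 measured 6.2 kb at chr2:27805801-27812000 and overlaps no curated gene. Upstream, 2.40% of bins differed in SD 12m and 6.00% in CR 12m.

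Pparg encodes PPARγ, which senses fatty acids and promotes fat storage. The gene lies at chr6:115360951-115490401 on the plus strand. The main TSS bin was in state 4 in each group, but promoter states began 0.4 kb downstream. The stretch was 1.6 kb at 3 months, 1.2 kb at 12 months and 1.0 kb under restriction. A second TSS at 1.40 kb, the one whose sequence is shown above, was in states 2, 1 and 3. The TSS of the PPARγ2 isoform at 61.1 kb, known from fat cells, was in state 3 in every group and had no bin in states 1 or 2 within 2 kb. In the body, state 3 held 80.3%, 81.5% and 94.6% and state 4 held 17.7%, 16.3% and 3.85%. Thus SD 12m resembled SD 3m in these shares and CR 12m had less of state 4.

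The flanks of Pparg switched more than its body. In the upstream flank, state 5 held 40.4%, 6.40% and 8%, while state 4 held 18.8%, 67.6% and 43.6%. Downstream, state 4 held 32.8%, 51.2% and 15.6%, and state 3 held 50%, 48.8% and 83.6%. All of these bins stayed in states 1 to 5, and with 5 classes 1.20% of the upstream and 0% of the downstream bins differed between SD 12m and SD 3m.

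Ppard encodes PPARδ, a broadly expressed receptor for fatty acids. The gene lies at chr17:28232754-28301469 on the plus strand. The TSS bin was in state 3 in each group and the stretch in states 1 and 2 was 1.6 kb in SD 3m and 0.8 kb in both older groups. SD 12m and CR 12m had the same state in all 21 bins around the TSS. In the body, state 5 held 16.8%, 2.61% and 0.58%, state 4 held 0.29%, 9.28% and 10.4% and state 8 held 5.22%, 0% and 0%. The downstream flank followed, with state 5 at 41.2%, 0% and 0%. Ppard therefore had less poised enhancer chromatin in both older groups, and its flanks had the largest share of switched bins of the 10, 52.8% at 12 months and 58.6% under restriction. Of its neighbours, Def6 was in states 3, 4 and 4 and Tead3 in states 1, 4 and 1, while Fance and Rpl10a stayed in state 1.

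Nr3c1 encodes the glucocorticoid receptor, which responds to adrenal steroids and induces gluconeogenic genes. It lies on chromosome 18, on the minus strand, and spans 108.9 kb. RefSeq curates 5 TSSs for it. Around the outermost, which stands for the gene here, no bin within 2 kb was in states 1 or 2 in any group. Of 21 bins, 11 had state 4 and 10 state 3 at 3 months, 21 had state 4 at 12 months, and 6 had state 4 and 15 state 5 under restriction. Most of this window was therefore in the poised state in CR 12m alone. All of its bins (100%) differed from SD 3m in CR 12m, against 47.6% in SD 12m. The other four TSSs lie 28.5 to 30.1 kb inside the gene and were in state 1 in every group, with 21 of 21 bins in states 1 or 2 at 3 months, 16 to 21 at 12 months and 16 to 19 under restriction.

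Nr3c1 was the 1 receptor whose body held state 7 at 12 months, with 0%, 2.01% and 4.58%. Among the genes without state 7 at 3 months, 5.34% had it at 12 months and 2.37% under restriction. The state 7 bins lay from 8.0 to 10.2 kb from the outer TSS in SD 12m and from 6.8 to 11.8 kb in CR 12m, where a block of 5.2 kb in state 1, from 7.4 to 12.6 kb, had been in SD 3m. State 8 held 0%, 0.18% and 2.56% of the body. State 1 held 7.69%, 4.21% and 3.30% and state 2 held 8.42%, 5.49% and 3.11%. State 3 filled most of the gene beyond the inner TSSs. Bins in states 7 and 8 began 6.8 kb from the outer TSS in SD 12m, with 0.2 kb in state 8, and 4.0 kb from it in CR 12m. The unbroken stretch in states 1 to 5 around this TSS measured 221.2 kb in SD 3m, 85.8 kb in SD 12m and 6.8 kb in CR 12m. It reached 10.8, 79.0 and 2.8 kb upstream and 210.4, 6.8 and 4.0 kb downstream. These breaks were short beside the gene: states 1 to 5 still held 97.8% of the body in SD 12m and 92.9% in CR 12m.

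Thrb encodes thyroid hormone receptor β, the main thyroid hormone receptor of liver, which controls lipid and cholesterol genes. It is the longest of the 10, at chr14:17660960-18038088 on the plus strand, and its states differed along the gene. From the TSS to 268.6 kb, 270.6 kb and 272.6 kb the bins were mostly in states 3 and 5, and beyond they were mostly in state 8, which held 26.9% of the body at 3 months, 29.0% at 12 months and 27.2% under restriction. State 5 held 18.4%, 30.7% and 5.99%, and state 3 held 50.4%, 40.0% and 61.4%. The poised and the active enhancer state thus moved in opposite directions in the older groups. Of the body bins, 28.4% differed between SD 12m and CR 12m, most of them within the enhancer states, since 4.08% differed between 5 classes.

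The longest block in state 5 in Thrb in SD 12m ran without a break for 36.6 kb, from 137.6 to 174.2 kb from the TSS. In SD 3m the same sequence alternated between states 3, 5 and 8, and in CR 12m between states 3, 4, 5 and 8. A 12.4 kb part of it, chr14:17822601-17835000, was the longest block that had state 3 under restriction and state 5 at 12 months, and it holds 82 exonic bases. In the downstream section, a block of 7.2 kb at chr14:17958001-17965200, with 261 exonic bases, was in state 4 at 3 months and in state 8 in both older groups. At the TSS, states 1 and 2 covered 3.4, 2.6 and 3.2 kb, with state 1 at 7, 11 and 12 of 21 bins. The second TSS at 320.7 kb was in the poised state 5 in each group. The downstream flank was in states 7 and 8 alone, with state 7 at 9.20% at 3 months, 24.4% at 12 months and 0% under restriction.

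Likeness of the TSS maps was counted as equal states over 63 values, 21 bins in each of 3 groups. Ppard came closest to another gene, with 61 equal values with each of Ccl9 and Dglucy. Nr1h4 shared 60 with Clcn7, Nr1h3 60 with Atp6v1c1, Nr0b2 60 with Slc8b1, Nr1i3 58 with Aff4, Nr1i2 57 with Pex16 and Thrb 54 with Zc3h10. Rxra shared 57 with each of 4 genes. Pparg and Nr3c1 had the least usual maps: the closest genes were Rhou and Rrbp1, with 44 equal values with Pparg, and Sult6b2, with 49 equal values with Nr3c1. Within the 10, Nr1h4 and Nr0b2 had the most in common, with 53 equal values, and Nr3c1 shared 3 with Rxra and 3 with Thrb. Close maps were common for most receptors, so such likeness is not particular to a pair. At least 80% of the values were equal in 341 genes for Nr1h4, 316 for Nr0b2, 634 for Nr1h3 and 604 for Ppard. The number was 215 for Rxra, 145 for Nr1i3, 127 for Nr1i2, 10 for Thrb and 0 for Pparg and Nr3c1.

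The other nuclear receptors and the pathway genes were counted by the state of their TSS bin. Of the 39 other nuclear receptors, 26, 25 and 24 were in states 1 to 5, against 58.2%, 58.3% and 58.9% of all genes. In the Polycomb state 6 were 10, 6 and 8 of the 39. The share of all genes with the TSS bin in state 6 was not counted. Over all genes, state 6 held 11.6%, 15.0% and 12.3% of the bins within 2 kb of the TSS. Ppara, the PPAR that is most abundant in hepatocytes, and Nr1h2, which encodes LXRβ, were in state 1 in each group. Hnf4a was in state 3 in each, without a bin in states 1 or 2 within 2 kb of the TSS read. Further TSSs of the list genes were not read. A crossing between states 1 to 5 and states 6 to 8 was seen for Esr2 (states 6, 5 and 6), Hnf4g (5, 5 and 8), Nr1h5 (4, 8 and 8) and Rora (1, 7 and 4). The TSS bin of 13 of the 39 differed between SD 12m and SD 3m (32.6% of all genes), of 15 between CR 12m and SD 3m (34.7%) and of 13 between SD 12m and CR 12m (26.7%). Of the 16 coregulators, 14, 13 and 16 were in states 1 to 5, and 7, 4 and 9 differed in these comparisons. Crebbp and Tbl1xr1 were in states 4, 7 and 4 and Ncoa2 in states 7, 1 and 4. Ppargc1a, the coactivator of fasting metabolism, was in state 8 in both standard diet groups and in state 4 in CR 12m.

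Among the targets, all 12 LXR targets, all 14 PPAR targets and all 8 thyroid hormone receptor targets were in states 1 to 5 in each group. The LXR targets in states 1 or 2 numbered 9 at 3 months, 7 at 12 months and 3 under restriction. The same counts were 6, 5 and 6 of the 12 FXR and SHP targets and 5, 7 and 6 of the 13 PXR and CAR targets. They were 8, 9 and 7 of the 14 PPAR targets, 5, 5 and 4 of the 10 glucocorticoid receptor targets and 5, 3 and 2 of the 8 thyroid hormone receptor targets. The share of all genes with the TSS bin in states 1 or 2 was not counted, so these target counts have no like background. As a different measure, over all genes, state 2 held 20.3%, 9.86% and 8.84% of the bins within 2 kb of the TSS. State 1 held 8.54%, 8.84% and 7.59% of them. Of the 12 LXR targets, 3 differed between SD 12m and SD 3m, 8 between CR 12m and SD 3m and 8 between SD 12m and CR 12m. Over genes with a TSS in states 1 to 5 the shares were 32.4%, 39.0% and 28.0%, and over all genes 32.6%, 34.7% and 26.7%. In the same comparisons, 5, 5 and 6 of the 14 PPAR targets, 4, 6 and 2 of the 8 thyroid hormone receptor targets, 4, 4 and 5 of the 12 FXR and SHP targets, 3, 4 and 4 of the 13 PXR and CAR targets and 7, 7 and 1 of the 10 glucocorticoid receptor targets differed. Srebf1, which drives lipogenesis, was in states 2, 2 and 3. Of the 12 FXR and SHP targets, 11 were in states 1 to 5 in each group, with the cholesterol 7α-hydroxylase gene Cyp7a1 in states 3, 5 and 3 and the bile salt export pump gene Abcb11 in states 3, 3 and 1. Of the 13 PXR and CAR targets, 11, 11 and 12 were, with Cyp3a11 in state 3 throughout and Sult2a1 in states 8, 8 and 4. Of the 10 glucocorticoid receptor targets, 9 were in each group. Tsc22d3 was in states 7, 1 and 4 and Sgk1 in states 5, 8 and 8.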

How the data were processed

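ChIP-seq libraries of 4 histone marks from FFPE mouse livers were aligned by the authors, and the submitters' processing notes name mm10, BWA 0.6.2-r126 and SAMtools 0.1.18. The authors merged the reads by group and mark and assigned states with ChromHMM. The deposited value is a label from 1 to 8 for each 200 bp bin, with no count or signal. Differences in depth between merged libraries are therefore hidden in the labels. Genes are the curated RefSeq transcripts of GRCm38.p6, 1 per gene by longest genomic span.

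Windows were the TSS bin with 10 bins on each side, the body, and 50 kb flanks. Shares and switched bins were computed in Python 3.11.15 (numpy 2.4.6, pandas 2.3.3, scipy 1.17.1, matplotlib 3.10.9), after the functions were tested on simulated segmentations. No test was run. Other TSS choices, window sizes, 5 state classes, weighting by gene, and the omission of Thrb, of bins near boundaries and of other genes' bodies were tried. The SD 6m group was not analysed here. The members and lists were chosen with earlier results of these data known. All receptors and their further TSSs over 1 kb away are named. List genes are named where the TSS bin crossed between states 1 to 5 and 6 to 8, with 7 fixed genes. A neighbouring gene is not reported here.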

Additional observations from a re-analysis of the deposited data

Results flagged for a closer look

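The share of a state moved by more than 10 percentage points in one direction in SD 12m and in the other in CR 12m, both against SD 3m, in 4 of 320 combinations of receptor, region and state. The threshold was chosen after the data were seen, the comparisons share SD 3m, and the difference was not tested. The same count over all genes was not made. Combinations whose state was absent in every group, such as state 6 in the bodies, are among the 320 but could not pass. The Thrb body entries for states 3 and 5 are not separate results, since its most frequent switch was between these states.

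Around the outer Nr3c1 TSS, state 4 held 52.4% of the bins at 3 months, 100% at 12 months and 28.6% under restriction, a gap of 71.4 percentage points between SD 12m and CR 12m. In the Thrb body, the share of state 5 in SD 12m exceeded that in CR 12m by 24.7 percentage points. State 3 there was lower by the same comparison, with a difference of -21.4 percentage points. In the downstream flank of Pparg, the share of state 4 in SD 12m exceeded that in CR 12m by 35.6 percentage points.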

How the results depend on the processing

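Each group has 1 merged segmentation and no depth, so leaving out a library was not possible. No paired analysis was possible because no group has replicate segmentations. Of 48 alternative values, 25 moved by less than the interval or ratio set for them and 23 moved further. Values are given for SD 12m against SD 3m, CR 12m against SD 3m and SD 12m against CR 12m.

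With 5 classes, which by construction can only lower these values, the TSS bin differed in 1 receptor in place of 2 in SD 12m, and the switched bins came to 13.3%, 17.6% and 9.05% around the TSS, 5.80%, 7.49% and 3.33% in the body and 9.54%, 10.8% and 5.62% in the flanks. Over all genes the class values were 27.3%, 27.9% and 17.5% around the TSS and 22.1%, 18.8% and 16.4% in the body. These values of all genes include genes without an active TSS, whereas every receptor had an active TSS in each group. Class values among genes with an active TSS in all groups were not computed. A trait of the receptors therefore cannot be told apart from a trait of active genes in the class values. Weighting receptors equally gave body values of 18.1%, 24.4% and 21.3%. Without Thrb they were 13.2%, 18.4% and 12.8%. Without bins within 1 kb of a boundary they were 8.87%, 10.7% and 11.6%. Flanks of 100 kb gave 29.5% and 33.0% in the first and second comparisons, and leaving out other genes' bodies gave 25.3% in the second and 17.1% in the third. The cause was not tested.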
